A study of Mus musculus with 227 samples.

Results

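The genes described here are 10 genes of pre-mRNA splicing, 5 SR proteins (Srsf2, Srsf3, Srsf5, Srsf6 and Srsf7), 2 kinases of SR proteins (Clk1 and Clk4) and 3 further RNA-related genes (Khdrbs1, Leng8 and Hnrnpdl), out of 31689 genes counted. They were chosen by symbol with attention to 2 drug libraries, Aminophylline and Luteolin, whose values bear on the choice, so their levels and differences in these drugs are given as a description, with no test of them. Each symbol matched the count table, and all 10 genes passed the filter on low counts in all 218 drug comparisons, with lowest counts between 532 (Clk4) and 3592 (Leng8).

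RNA came from primary cerebrocortical cultures of embryonic day 16.5 mouse embryos, the F1 offspring of FVB/N females and C3B6F1 males, grown to 21 days in vitro in Neurobasal medium with B27. Every culture carried this genetic background with no engineered allele and was exposed for 8 h either to vehicle (0.2% DMSO) or to a single drug. There were 9 vehicle libraries and 218 drug libraries, 1 per drug, and the doses are not given in the sources used here. Nothing in the labels says that the vehicle libraries came from separate embryos or preparations, so p-values measure only the spread between these libraries, which may be technical, and a single drug library is assumed to vary as the vehicles do.

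Libraries held 22.02 to 65.19 M counted reads (median 34.99 M; vehicles 31.4 to 43.77 M) and fell into 9 sequencing run codes. Run codes HI.3139, HI.3140 and HI.3254 held no vehicle. Within a run code the labels carry a further number, taken here as the sequencing lane. Neuron markers summed to 5830 to 7760 CPM (counts scaled to an equal library total for every library) in the vehicles and astrocyte markers to 6340 to 7970. Oligodendrocyte-lineage markers summed to 281 to 502 CPM, microglia markers to at most 17.9 and endothelial markers to at most 4.44, with Cldn5 at 0 in all 9 vehicles. In such mixed cultures, fewer cells of a type and less RNA per cell cannot be told apart.

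SR proteins bind exonic RNA through RNA recognition motifs and recruit the spliceosome through a domain rich in arginine and serine. Clk kinases phosphorylate that domain and release SR proteins from nuclear speckles, the stores of splicing factors in the nucleus. Many SR protein genes limit their own level: the protein promotes inclusion of a poison exon, which carries a premature stop codon and sends the transcript to nonsense-mediated decay. Clk1 and Clk4 transcripts are known for introns that are kept in the nucleus and spliced on demand. Khdrbs1 encodes Sam68, an RNA-binding STAR protein active in neuronal splicing, and Hnrnpdl encodes an hnRNP protein that also regulates its own splicing. Leng8 is less well described and encodes a nuclear protein linked to messenger RNA processing and export.

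Clk1 and Clk4 had the clearest differences among the 10 genes. Both rose in the libraries of Nilotinib, an inhibitor of the BCR-ABL tyrosine kinase, and Fenofibrate, an agonist of the fatty acid receptor PPAR-alpha, by 0.79 to 0.90 log2 units. Srsf7 rose in Fenofibrate and in Mitoxantrone·HCl, a topoisomerase inhibitor, and Khdrbs1 fell in Nilotinib. These were the 7 differences past the threshold (edgeR quasi-likelihood test, Benjamini-Hochberg adjusted p under 0.05 over all genes tested) among 2160 pairs of a drug and 1 of the 10 genes, leaving out Aminophylline and Luteolin, or 0.324%, against 0.118% of all gene-drug pairs (rises 0.0648%, falls 0.0528%). Without adjustment, 163 pairs (7.55%) had p under 0.05, against 3.79% of all pairs. The excess was uneven: 64 of the 163 were pairs of Leng8 alone, followed by Srsf7 (22), Clk4 (20) and Clk1 (19). It is thus not a trait of the 10 genes as a set. Each vehicle was also set against the remaining 8, and none of 90 such edgeR tests of these genes passed, and 2 had an unadjusted p under 0.05. Over all genes 0 were called in these 9 vehicle comparisons, so the absence of calls is not particular to the 10 genes.

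**Figure D1:**
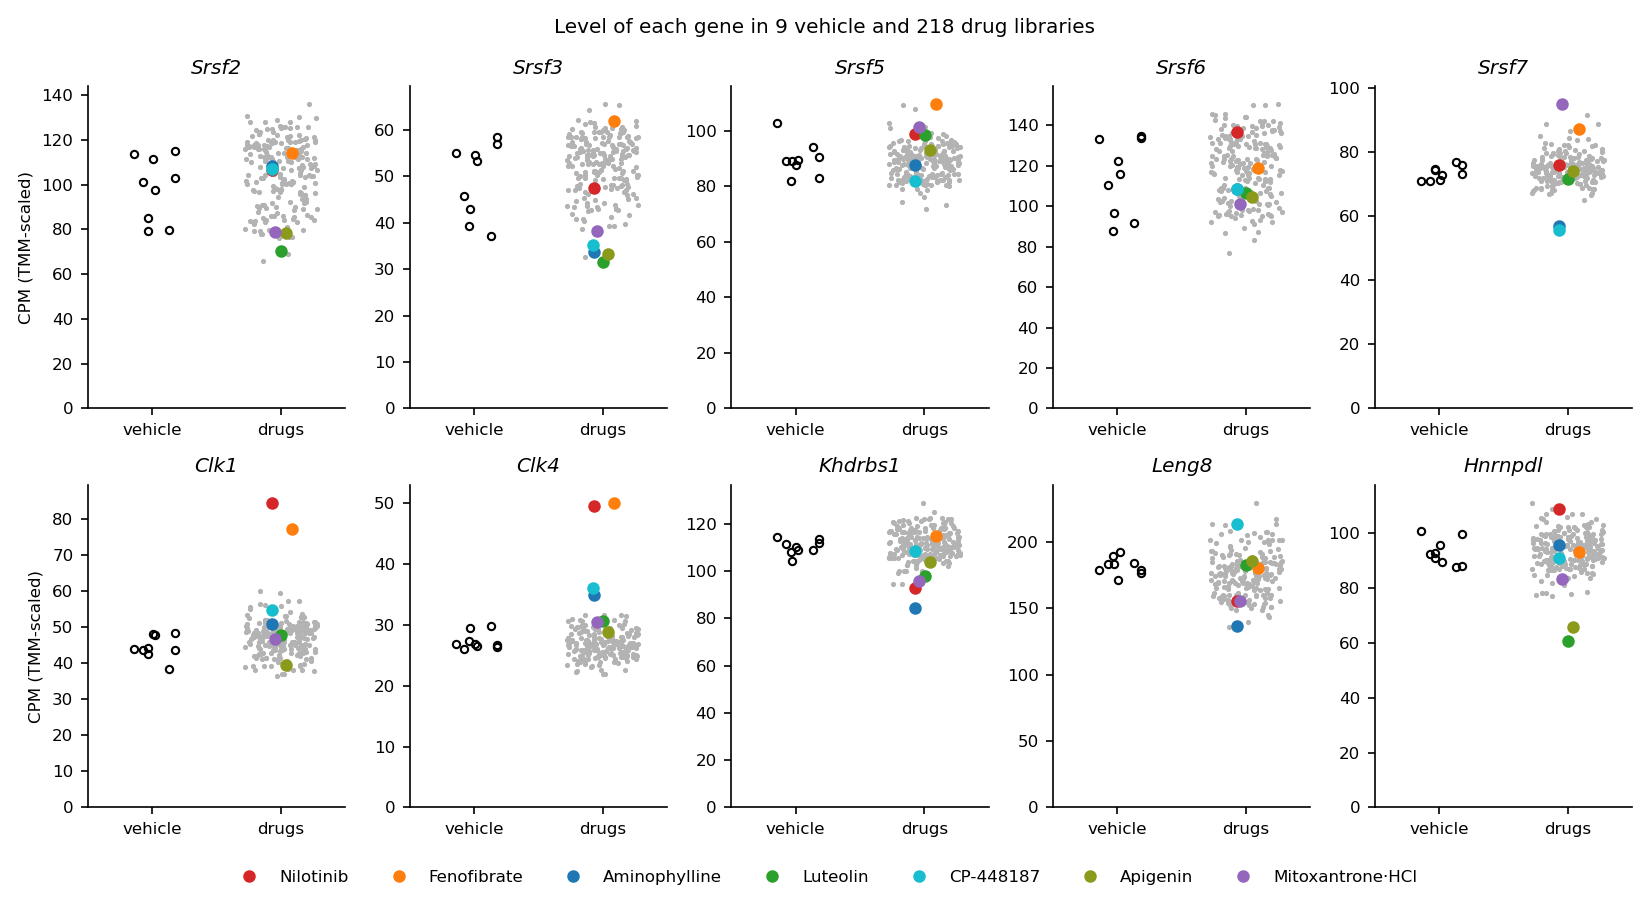
Level of each of the 10 genes in every library (y axis, CPM with TMM scaling, from 0), with the 9 vehicles as open circles, drugs as grey points and 7 named drugs in colour. Nilotinib (84.4 and 49.5) and Fenofibrate (77.2 and 49.98) lie above all other libraries for Clk1 and Clk4, and Luteolin (60.6) and Apigenin (65.8) lie below all others for Hnrnpdl.

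Clk1 (ENSMUSG00000026034.15; mm10 chromosome 1, 58410189 to 58424066, minus strand) encodes a dual-specificity kinase that phosphorylates SR proteins. In the 9 vehicles its level was 38.5 CPM at the lowest, 43.9 at the median and 48.6 at the highest. Across the drugs it ran from 36.4 in Rufinamide to 84.4 in Nilotinib, with a median of 47.5. Nilotinib and Fenofibrate (77.2 CPM) stood apart from the third highest drug, Oxazepam, at 60.01 CPM, and neither overlapped the vehicles. Clk1 was 0.90 ± 0.11 log2 units higher than vehicle in Nilotinib (standard error; edgeR adjusted p = 0.000938). In Fenofibrate it was 0.79 ± 0.11 higher (edgeR adjusted p = 0.00153). The lowest levels after Rufinamide were those of Acetazolamide (36.9 CPM) and Daidzein (37.1), close to the lowest vehicle.

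Clk4 (ENSMUSG00000020385.14; chromosome 11, 51261730 to 51281766, plus strand) is the close paralog of Clk1. Its vehicle levels were tight, with 26.1 CPM at the lowest, 26.9 at the median and 29.8 at the highest. Fenofibrate reached 49.98 CPM and Nilotinib 49.5, followed at a distance by CP-448187 (36.1) and Aminophylline (34.9). None of these 4 overlapped the vehicles, a narrow range that other libraries in the runs of Nilotinib and Fenofibrate also exceeded. The rise was 0.87 ± 0.08 log2 units in Fenofibrate (edgeR adjusted p = 0.000122) and 0.83 ± 0.08 in Nilotinib (edgeR adjusted p = 0.000334). At the low end stood Daidzein (21.9 CPM), Acetazolamide (21.97) and Oxcarbazepine (22.2). Daidzein and Acetazolamide, low for both kinases, shared a lane.

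Within its own sequencing run, each of these libraries stood above all 31 others for both kinases. In run code HI.3078 the others of Nilotinib spanned 42.7 to 60.01 CPM for Clk1 and 24.6 to 31.7 for Clk4. In run code HI.3147 the others of Fenofibrate spanned 39.1 to 53.7 and 22.2 to 31.6. Nortriptyline·HCl, Nitrofurantoin and Orlistat, the lane mates of Nilotinib, had Clk1 at 57.4, 57.3 and 55.9 CPM, above their run median of 49.7. Nabumetone, Omeprazole and Oxcarbazepine, the lane mates of Fenofibrate, had 39.1, 40.7 and 42.1, under their run median of 47.3. The part of lane in these levels was not tested. The 4 calls were kept in all 13 alternative analyses, which left out each vehicle in turn or changed the scaling, filter or model, with adjusted p from 6.82e-19 to 0.0048. Both drugs changed many genes: 12.2% of genes tested were called in Nilotinib (rises 6.2%, falls 6.02%) and 10.6% in Fenofibrate (rises 5.82%, falls 4.78%). Against those shares, 2 of the 10 genes rose and 1 fell in Nilotinib, and 3 rose in Fenofibrate.

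Clk1 and Clk4 also moved together over the rest of the screen. With each library centred on its run median, their log2 CPM had a Pearson r of 0.72 and a Spearman rho of 0.56 over all libraries except Aminophylline and Luteolin. The r was 0.61 over the 223 libraries without Nilotinib and Fenofibrate and 0.24 to 0.88 within single runs. In the 9 vehicles alone, by contrast, r was −0.59. These libraries share 1 count table and its scaling, and the values are a description.

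The DNA just before the RefSeq start of Clk4 (GRCm38.p6, chr11:51263047-51263113, plus strand, inside the longer GENCODE gene but outside its exons) is shown because Clk4 was the most raised of the 10 genes in Fenofibrate. Capitals mark the core of the cyclic AMP response element, TGACG on either strand (CGTCA), including the full palindrome TGACGTCA. It is set beside the stretch before Srsf3 (chr17:29032569-29032627, plus strand), a gene low in Aminophylline and Luteolin, and the 250 bases before Srsf6 (chr2:162931258-162931507, plus strand).
Clk4: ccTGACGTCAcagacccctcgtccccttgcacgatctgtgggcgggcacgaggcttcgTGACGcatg
Srsf3: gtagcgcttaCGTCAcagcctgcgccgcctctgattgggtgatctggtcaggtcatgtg
Srsf6: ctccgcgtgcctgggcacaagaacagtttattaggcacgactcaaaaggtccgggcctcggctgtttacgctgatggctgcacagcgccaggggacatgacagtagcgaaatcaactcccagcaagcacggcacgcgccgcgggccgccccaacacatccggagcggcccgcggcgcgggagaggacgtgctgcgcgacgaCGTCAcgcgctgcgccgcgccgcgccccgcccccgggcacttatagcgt
Promoter windows of 8 of the 10 genes were found in the RefSeq table. The core was in the 250 bases before the start of 5 of these 8 (Clk4, Leng8, Srsf3, Srsf5 and Srsf6) and in 17.9% of all 27025 promoters. The full palindrome was in 1 of the 8 (Clk4) and in 439 promoters. GGGCGG on either strand was in 7 of the 8 and in 32.9% of promoters, and CCAAT in 3 and in 34.5%. The ETS core CCGGAA was in 4 of the 8 and in 12.2%, TATAAA in 2 and in 13.0%, and CACGTG in 0 and in 6.05%. The marked core was thus not the only motif with a higher share in the 8 than in all promoters. A match describes the letters of the window and is not a measured binding site.

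Of the SR proteins, Srsf7 had the tightest vehicle levels and passed the threshold in 2 drugs. Srsf7 (ENSMUSG00000024097.10; chromosome 17, 80200080 to 80207307, minus strand) lay between 71.1 and 76.9 CPM in the vehicles, with a median of 73.1. Only 1.6% of 13023 genes with a mean of 1 CPM or more had a lower vehicle SD on the log2 scale. That SD was 0.0417 in the vehicles and 0.093 over the 218 drugs. The test takes its error from the vehicles, so it does not cover this wider spread. Srsf7 was 94.98 CPM in Mitoxantrone·HCl, 91.6 in PF-04995274-00, 88.9 in Carvedilol and 87.2 in Fenofibrate. The rise in Mitoxantrone·HCl was 0.36 ± 0.06 log2 units (edgeR adjusted p = 0.039), beside 0.402% of genes called in that comparison (rises 0.169%). In Fenofibrate it was 0.24 ± 0.06 (edgeR adjusted p = 0.0359). Both are small and near the threshold: leaving out any 1 vehicle ended the call in Mitoxantrone·HCl (adjusted p up to 0.117), and leaving out vehicle 2, 5, 6 or 9 ended that in Fenofibrate (up to 0.0748). Without the filter on low counts both calls were lost, and the limma model with run code did not call Mitoxantrone·HCl either (adjusted p = 0.0573), while DESeq2 did (adjusted p = 1.14e-06). Mitoxantrone·HCl came from run code HI.3254, which has no vehicle, so drug and run cannot be told apart in that comparison; in its run it was above all 7 other libraries, which spanned 71.3 to 79.8 CPM.

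At the other end, Srsf7 was 55.7 CPM in CP-448187, a compound known by a code name, 56.9 in Aminophylline and 65.1 in Leucovorin Calcium Pentahydrate. CP-448187 was 0.41 ± 0.07 log2 units below vehicle, which did not pass in edgeR (adjusted p = 0.178). It passed in the alternative limma model with a term for run code over all libraries (adjusted p = 0.000111) and in DESeq2 (adjusted p = 5.88e-07). Its run, HI.3140, held no vehicle, and the other 15 libraries of that run lay at 73.1 to 84.2 CPM, all higher. In the same library Clk4 was 36.1 CPM, above its 15 run mates (21.9 to 30.7), and Srsf3 was 35.2 CPM, below all of them (42.7 to 59.9). Neither passed in edgeR (adjusted p = 0.42 for Clk4 and 0.864 for Srsf3), while both passed in the run-code model (limma adjusted p = 0.0436 and 0.0417).

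Srsf2, Srsf3 and Srsf6 formed the most variable group. Srsf2 (ENSMUSG00000034120.16; chromosome 11, 116849901 to 116853094, minus strand), also known as SC35, ran from 79.5 to 115 CPM in the vehicles with a median of 101. Srsf3 (ENSMUSG00000071172.10; chromosome 17, 29032628 to 29043373, plus strand), one of the smallest SR proteins, ran from 37.1 to 58.5 with a median of 53.3. Srsf6 (ENSMUSG00000016921.12; chromosome 2, 162931528 to 162937121, plus strand), which carries a pair of RNA recognition motifs, ran from 87.7 to 135 with a median of 116. Vehicles 6, 7 and 8 were the low ones for each of the 3 genes: for Srsf2 they had 85.4, 79.7 and 79.5 CPM, against 97.9 to 115 in the other 6. Vehicles 6 and 7 shared run code HI.3083, but vehicle 8 shared run code HI.3147 with vehicle 9, which had 97.9.

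Across the run-centred libraries other than Aminophylline and Luteolin, r was 0.84 for Srsf2 with Srsf6, 0.81 for Srsf2 with Srsf3 and 0.72 for Srsf3 with Srsf6. The median over all 45 pairs of the 10 genes was 0.21. In the 9 vehicles the 3 values were 0.95, 0.93 and 0.97. Within single runs they ranged from 0.51 to 0.95, from 0.24 to 0.95 and from −0.01 to 0.89, so the last relation was absent in at least 1 run. The 3 genes had the largest vehicle SDs of the 10 on the log2 scale, and none of the other drugs passed the edgeR threshold for any of them. At an unadjusted p under 0.05 stood 3 drugs for Srsf2, 4 for Srsf3 and 1 for Srsf6; DESeq2 called 0, and limma with run code called 2 drugs for Srsf3 and 0 for the others. The R squared of run code was 0.38 for Srsf2, 0.23 for Srsf3 and 0.39 for Srsf6, beside a median of 0.254 over genes.

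**Figure D2:**
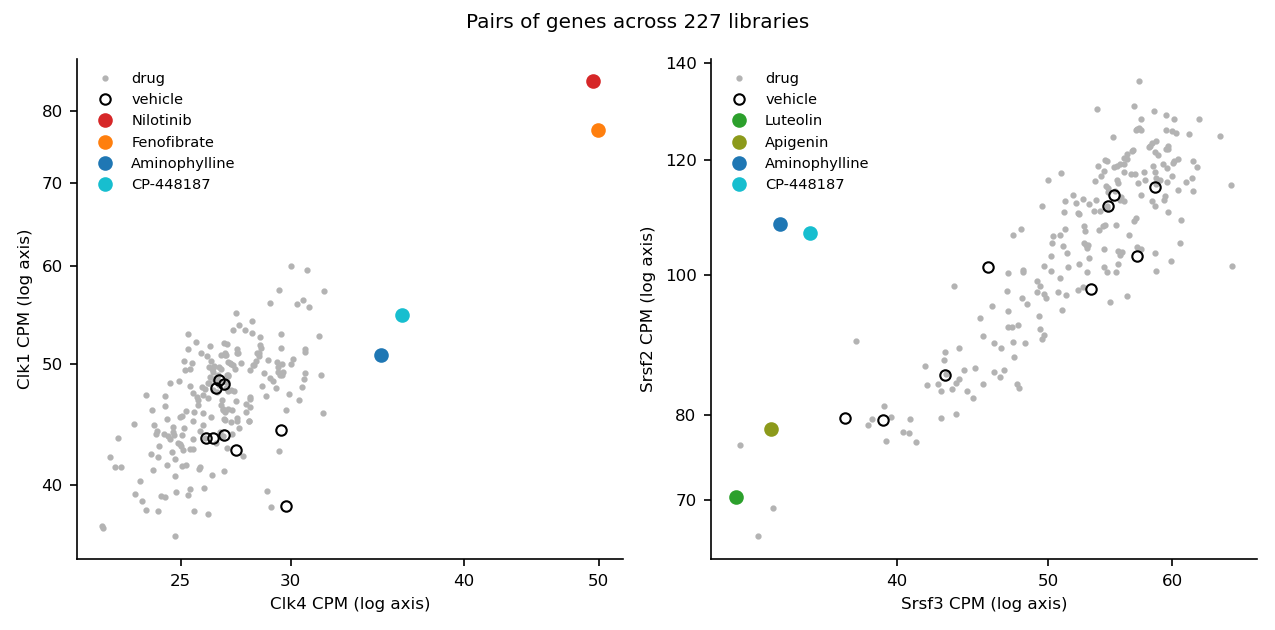
Level of Clk1 against Clk4 (left) and of Srsf2 against Srsf3 (right) in all libraries, in CPM on log axes, with vehicles as open circles, drugs in grey and named drugs in colour. Nilotinib and Fenofibrate sit apart at the upper right for the kinases; Aminophylline and CP-448187 have low Srsf3 (33.7 and 35.2) at Srsf2 levels near the drug median (108 and 107), while Luteolin is low in both (31.6 and 70.3).

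Low Srsf2, Srsf3 and Srsf6 came together in a few libraries. Medroxyprogesterone Acetate, a progestin, had the lowest Srsf2 (66.0 CPM) and Srsf6 (76.7) and the third lowest Srsf3 (32.6), and Sulfamethoxazole, an antibiotic, the next lowest Srsf2 (69.0) and Srsf6 (83.4). Medroxyprogesterone Acetate came from run code HI.3254, whose median was the lowest of the 9 runs for all 3 genes. In that run Srsf3 was 32.6 to 41.8 CPM in its lane and 42.7 to 56.2 in the other lane. Sulfamethoxazole shared a lane with Rufinamide, Theophylline and vehicle 7. These had Srsf3 at 42.9, 40.7 and 37.1 CPM, under the run median of 53.3. The part of lane in these low levels was not tested. None of these differences passed in edgeR (adjusted p = 0.71 for the 3 genes in Medroxyprogesterone Acetate and 0.749 in Sulfamethoxazole). Doxycycline Monohydrate, another antibiotic, had Srsf3 at 31.7 CPM (edgeR adjusted p = 0.842, 0.0471 in the limma model with run code). The lane mates of Doxycycline Monohydrate had Srsf3 at 38.6 to 51.3 CPM, under their run median of 53.0. The highest Srsf2 was 136 CPM in Fingolimod, the highest Srsf3 65.5 in Vigabatrin, and Srsf6 reached 150 in Quercetin, Nortriptyline·HCl and Nitrofurantoin.

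Srsf5 (ENSMUSG00000021134.15; chromosome 12, 80945504 to 80950507, plus strand), an SR protein also known as SRp40, ran from 81.9 to 103 CPM in the vehicles with a median of 89.2. Fenofibrate was the highest drug, at 110 CPM, and Cetirizine 2HCl the lowest, at 71.9. The Fenofibrate difference of 0.28 ± 0.10 log2 units did not pass in edgeR (adjusted p = 0.105) and passed in the limma model with run code (adjusted p = 0.00342). It was above all 31 run mates, at 80.4 to 96.3 CPM. The 3 lowest drugs for Srsf5, with Sulindac (73.1) and Pioglitazone·HCl (74.3), were all from the same lane of run code HI.3122. Rivastigmine Tartrate, from that lane as well, was the next lowest library at 76.15 CPM, under the run median of 87.1. Drug and lane cannot be told apart for these low levels.

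Poison exons of Srsf3 and Srsf7 are shown because the deposited values are gene totals: reads of the productive transcript and of the transcript with such an exon count toward the same gene. In GENCODE vM21 (GRCm38), the Srsf3 exon spans chr17:29039454-29039909 on the plus strand (456 bases) and the Srsf7 exon chr17:80204622-80205081 on the minus strand (460 bases), both inside the gene and present in a transcript marked for nonsense-mediated decay. The letters below end at the premature stop codon, in capitals.
Srsf3: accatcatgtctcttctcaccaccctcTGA
Srsf7: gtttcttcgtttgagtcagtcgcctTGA
Of the 10 genes, 9 (all but Leng8) have a transcript marked for nonsense-mediated decay, against 20.8% of 21951 protein-coding genes, and 10 have a transcript with a retained intron, against 41.5%. How the reads of Clk1, Clk4, Srsf3 or Srsf7 divide between such forms was not analysed here. Reads shared with paralogs or processed copies, and reads of genes on the opposite strand, are a further uncertainty, since the strand setting and the handling of multiply mapped reads are not given in the sources used here.

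Among the RNA-binding partners, Khdrbs1 (ENSMUSG00000028790.11; chromosome 4, 129703164 to 129742303, minus strand) lay between 104 and 114 CPM in the vehicles with a median of 110. Only 1.54% of genes had a lower vehicle SD. On the log2 scale the SD of Khdrbs1 was 0.0411 in the vehicles and 0.085 over the 218 drugs, a wider spread that the test does not cover. Nilotinib, at 92.7 CPM, was below all vehicles and below all 31 libraries of its run, which spanned 107 to 129. The fall was 0.27 ± 0.07 log2 units (0.827 times vehicle, edgeR adjusted p = 0.033). Leaving out vehicle 5, 6, 7 or 9, or using no filter on low counts, ended this call (adjusted p up to 0.0709). Aminophylline was the lowest drug (84.2 CPM), Ciprofibrate the third lowest (94.5, edgeR adjusted p = 0.186), and Oxaprozin the highest (129).

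Leng8 (ENSMUSG00000035545.11; chromosome 7, 4137039 to 4148177, plus strand) ran from 171 to 193 CPM in the vehicles with a median of 183. Its lowest drugs were Benzbromarone and Aminophylline, both at 136 CPM, and its highest was Escitalopram, at 229. In Nilotinib it was 155 CPM, 0.25 ± 0.07 log2 units under vehicle, just outside the threshold (edgeR adjusted p = 0.0513). No drug was called in edgeR, while 64 of the drugs other than Aminophylline and Luteolin had an unadjusted p under 0.05, the most of the 10 genes, and DESeq2 called 6 and limma with run code 0. The log2 SD of Leng8 was 0.0525 in the vehicles and 0.136 over the 218 drugs. Its run medians ranged from 159 CPM in run code HI.3122 to 191 in run code HI.3147. The drugs at its high end, Escitalopram, Galantamine·HBr (218) and Telmisartan (214), were all from run code HI.3147. Escitalopram and Galantamine·HBr also shared a lane.

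Hnrnpdl (ENSMUSG00000029328.13; chromosome 5, 100033577 to 100039664, minus strand) ran from 87.5 to 101 CPM in the vehicles with a median of 92.2. Luteolin (60.6), Apigenin (65.8) and Everolimus (77.1) were its lowest drugs and Ketotifen Fumarate (111) its highest. Apigenin, a flavone, was 0.51 ± 0.09 log2 units under vehicle. This did not pass in edgeR (adjusted p = 0.749), but passed in the limma model with run code (adjusted p = 0.000358) and in DESeq2 (adjusted p = 0.00183). The Apigenin library was below all 31 others of its run, at 78.1 to 99.1 CPM.

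**Figure D3:**
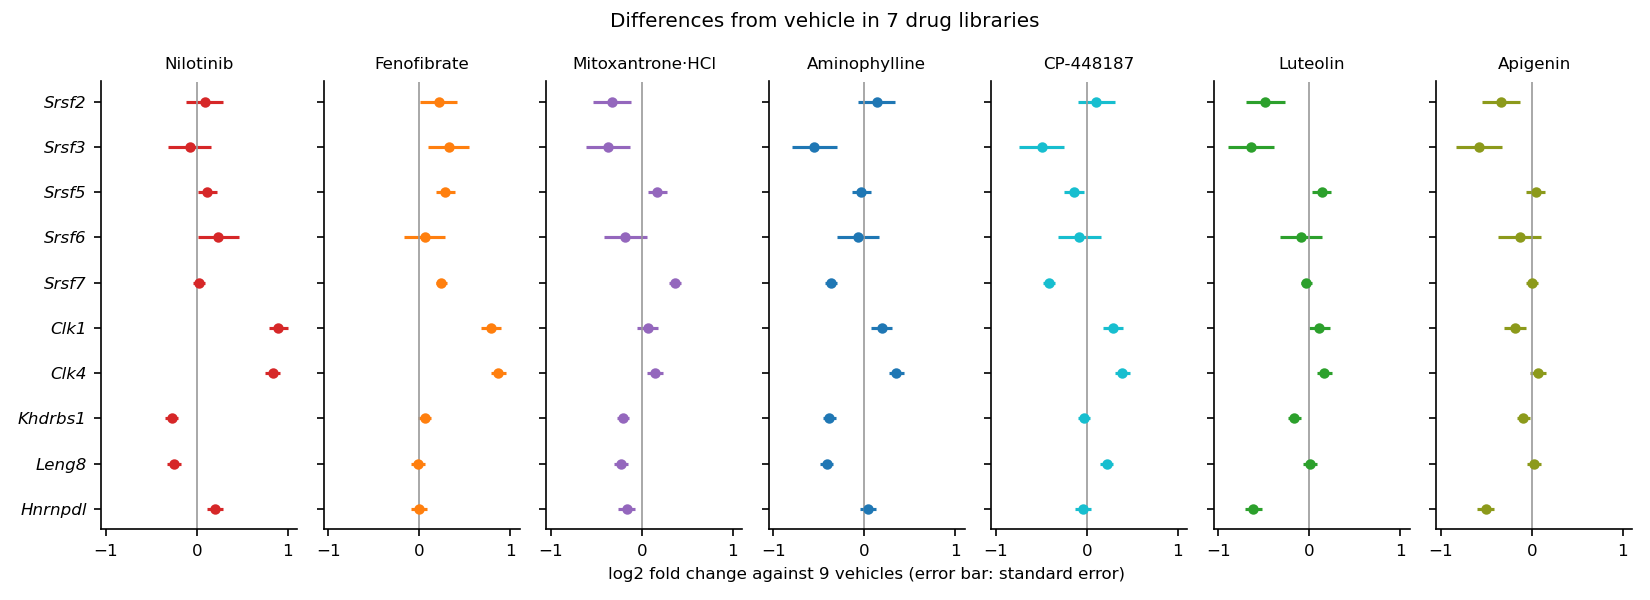
Log2 fold change of each gene against the 9 vehicles in 7 drug libraries (x axis; points are edgeR estimates and bars their standard errors). Clk1 and Clk4 are the points farthest to the right in Nilotinib and Fenofibrate, Hnrnpdl is at −0.61 in Luteolin and −0.51 in Apigenin, and Srsf7 is at −0.37 in Aminophylline and −0.41 in CP-448187.

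The values that chose the genes were those of Aminophylline and Luteolin, and no support is drawn from them. Aminophylline, theophylline combined with ethylenediamine, is a bronchodilator that blocks adenosine receptors and phosphodiesterases. Over all 15441 genes its comparison called 0.486% (rises 0.466%, falls 0.0194%), and nothing is read from these shares for the 10 genes. Srsf7, Khdrbs1 and Leng8 were at 56.9, 84.2 and 136 CPM, with log2 differences of −0.37 ± 0.07, −0.39 ± 0.07 and −0.41 ± 0.08. Srsf3 was at 33.7 CPM (−0.55 ± 0.25) and Clk4 at 34.9 CPM (0.35 ± 0.08), the other 2 genes in which this library stood outside its run. Each of Srsf3, Srsf7, Khdrbs1 and Leng8 was lower, and Clk4 higher, than in the 31 other libraries of run code HI.3122. Srsf2 (108 CPM), Srsf5 (87.7), Srsf6 (109), Clk1 (50.9) and Hnrnpdl (95.8) lay inside the range of that run.

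Luteolin, a flavone found in plants, came from run code HI.3139, which has no vehicle, so drug and run cannot be told apart in this comparison. Over all genes it called 0.247% (rises 0.221%, falls 0.026%), again with nothing read from these shares for the 10 genes. Hnrnpdl was at 60.6 CPM, −0.61 ± 0.09 log2 units from vehicle, under its 19 run mates at 77.1 to 97.0. Srsf3 was at 31.6 CPM (−0.64 ± 0.25), Srsf2 at 70.3 (−0.48 ± 0.21) and Khdrbs1 at 97.8 (−0.17 ± 0.07), each also under all 19 run mates. Srsf5 (98.5 CPM) and Clk4 (30.6) were above all of them, and Srsf6, Srsf7, Clk1 and Leng8 lay inside their range.

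Drugs related to these 2 were set side by side, with no test of their differences because doses are not given. Among drugs containing a theophylline part, Srsf7 was 56.9 CPM in Aminophylline, 76.0 in Theophylline, 76.0 in Oxtriphylline (the choline salt) and 68.6 in Dimenhydrinate (diphenhydramine with a chlorinated theophylline). Khdrbs1 was 84.2, 108, 106 and 116 CPM, and Clk4 34.9, 29.4, 25.1 and 28.2, in the same order. The low Srsf7 and Khdrbs1 of Aminophylline, values that bear on the choice of the genes, were thus not seen at that size in the other 3 libraries. Srsf7 in Dimenhydrinate was still under the lowest vehicle (71.1 CPM). Each of these libraries came from a different run, and that of Oxtriphylline held no vehicle, so drug and run cannot be told apart. The phosphodiesterase inhibitors Sildenafil Citrate and Tadalafil had Srsf7 at 73.8 and 80.2 CPM and Clk4 at 26.1 and 29.6.

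Among flavonoids, Hnrnpdl was 60.6 CPM in Luteolin and 65.8 in Apigenin, flavones that differ by 1 hydroxyl group. It was 92.9 in Quercetin and 93.4 in Kaempferol, the flavonols that carry a further hydroxyl group on the central ring, and 90.7 in Genistein and 86.8 in Daidzein, isoflavones. Srsf3 was 31.6 and 33.2 CPM in the flavones, 55.4 and 47.5 in the flavonols and 57.4 and 58.6 in the isoflavones. For Srsf3 the flavones lay below the lowest vehicle (37.1), and the other 4 lay within the vehicle range or, for Daidzein, at its upper edge (58.5). Luteolin and Daidzein came from runs without a vehicle, and the other 4 from run code HI.3083.

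**Figure D4:**
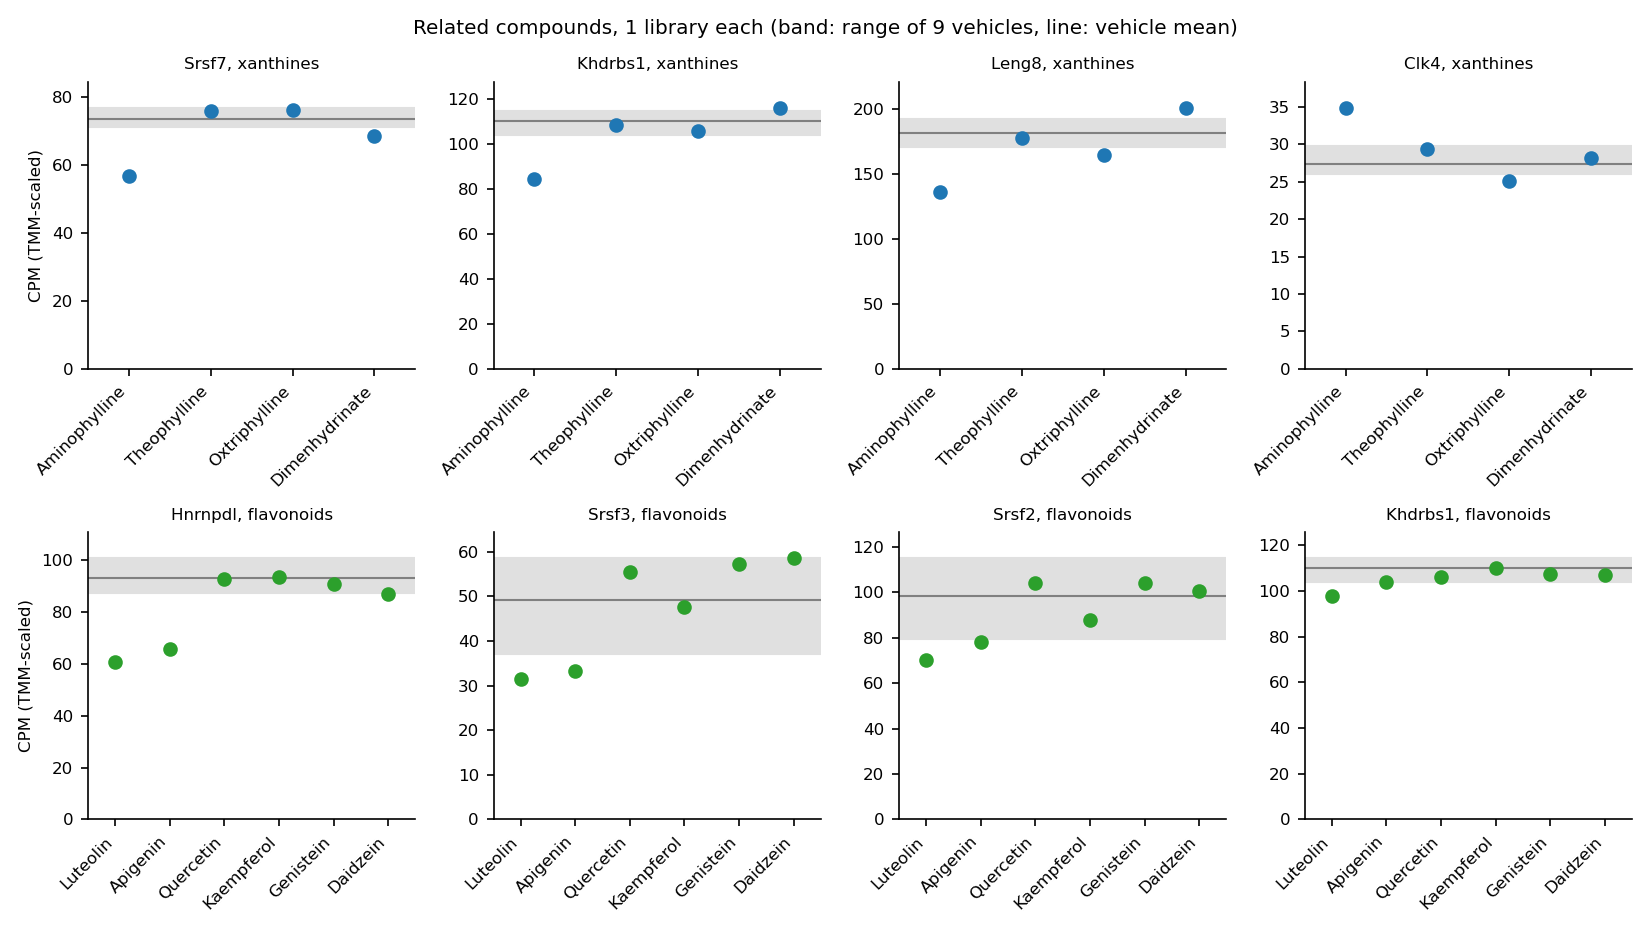
Levels of 4 genes in drugs containing a theophylline part (upper row) and of 4 genes in flavonoids (lower row), in CPM with 1 library per point; the grey band is the range of the 9 vehicles and the line their mean. Aminophylline lies outside the band in all upper panels, and Luteolin and Apigenin lie below it for Hnrnpdl, Srsf3 and Srsf2, where Apigenin (78.3) is just under the lowest vehicle (79.5).

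Levels between genes were compared in the deposited RPKM values, which correct for gene length and depth. In the vehicles Srsf5 was the highest, with a mean of 54.1 RPKM and a range of 47.5 to 63.3 over 9 libraries, followed by Srsf2 at 49.2 (37.4 to 57.8). Hnrnpdl (33.7; 29.9 to 37.4), Leng8 (32.9; 31.4 to 34.7), Srsf7 (32.2; 31.5 to 33.5), Srsf6 (30.9; 22.8 to 38.1) and Khdrbs1 (29.4; 27.4 to 31.7) came next. Clk1 (24.8; 20.1 to 28.3), Srsf3 (19.2; 13.6 to 23.2) and Clk4 (13.2; 12.7 to 14.3) were the lowest. Each pair of neighbours in this order overlapped in range, Srsf2 and Hnrnpdl barely, at 37.4.

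Other genes of RNA processing were followed in a list of 111 genes. Over the drugs other than Aminophylline and Luteolin it had 18 rises and 13 falls past the edgeR threshold, in Nilotinib (8 rises and 9 falls), Fenofibrate (10 rises and 3 falls) and Ciprofibrate (1 fall). That is 15.3% of the list in Nilotinib against 12.2% of all genes, 11.7% in Fenofibrate against 10.6%, and 0.901% in Ciprofibrate against 0.723%, shares near the background. In Aminophylline and Luteolin none of the 111 passed in edgeR, with 21 and 24 at an unadjusted p under 0.05, 4 and 8 called in DESeq2 and 14 and 21 in limma with run code. Shares over all genes at that p and in those models are not given here for these 2 drugs. Nothing is therefore read from these counts. The median log2 difference of the list was 0.00 in Nilotinib and 0.07 in Fenofibrate, beside −0.014 and −0.005 over all genes, and that of the 10 genes was 0.10 and 0.23. For the 10 genes, other drugs of the Nilotinib run had medians from −0.035 (Perindopril Erbumine) to 0.192 (Oxaprozin), so 0.10 was within that run. Other drugs of the Fenofibrate run had −0.164 (Nabumetone) to 0.129 (Rifampin).

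In Fenofibrate the largest rise in the list was that of Neat1, the noncoding RNA that builds paraspeckles. It went from 14.3 ± 8.4 CPM (SD, n = 9) in the vehicles to 264 (4.2 ± 0.52 log2 units, edgeR adjusted p = 0.000934). Ccnl1, a cyclin of the kinases that act in splicing, went from 24.8 ± 1.63 to 96.2 CPM (1.95 ± 0.09, edgeR adjusted p = 8.48e-07). Rises of 0.46 to 0.75 log2 units were seen for Nktr, which carries an SR-like domain, the decay factor Smg6 and the splicing coactivator Rbm39. Of the 15 other SR and SR-related genes 3 rose (Srrm1, Srsf11 and Thrap3), against rises of 5.82% over all genes. Elavl2, a neuronal RNA-binding protein, fell from 117 ± 9.14 to 42.8 CPM (−1.45 ± 0.13, edgeR adjusted p = 0.000125), and Mbnl1 (−0.32) and Hnrnph2 (−0.26) fell less. Elavl2 was the 1 call of Ciprofibrate, a fibrate like Fenofibrate, at 59.3 CPM (−0.99 ± 0.13, edgeR adjusted p = 0.0131), from a run without a vehicle.

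In Nilotinib Ccnl1 rose to 48.5 CPM (0.94 ± 0.10, edgeR adjusted p = 0.000442), followed by Taf15 (0.52), the kinase Dyrk1a (0.51 ± 0.07, edgeR adjusted p = 0.00135), the spliceosome component Prpf3 (0.41) and Rbm39 (0.40). None of the 15 other SR and SR-related genes passed in edgeR, with 1 at an unadjusted p under 0.05, 1 called in DESeq2 and 2 in limma with run code. The falls were led by neuronal regulators of splicing and RNA: Rbfox1 (−0.87), Celf4 (−0.67) and Nova2 (−0.55), with Snrpn (−0.52) and Nova1 (−0.38). Of 14 such neuronal regulators 4 fell in Nilotinib (28.6%, against falls of 6.02% over all genes) and 2 in Fenofibrate (14.3%, against 4.78%). In these 2 drugs DESeq2 called 7 and 5 of the 14, and limma with run code 6 and 7, in either direction. Shares over all genes in DESeq2 and limma are not given here for Nilotinib and Fenofibrate. Over the drugs other than Aminophylline and Luteolin those models called 0.269% and 0.457% of all pairs, against 0.118% in edgeR. Their counts for the 14 regulators and the 15 SR and SR-related genes thus lack a matching background, and nothing is read from them.

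Markers of cell types differed in the same libraries. The 9 neuron markers summed to 4800 CPM in Nilotinib and 5220 in Fenofibrate, both under the vehicle range of 5830 to 7760, and 3 of 9 fell in each, beside falls of 6.02% and 4.78% over all genes. Astrocyte markers summed to 9220 CPM in Fenofibrate, above the vehicle range of 6340 to 7970, and 2 of 7 rose, beside rises of 5.82% over all genes; in Nilotinib they were within it (6960). Oligodendrocyte-lineage markers summed to 167 CPM in Nilotinib, under the range of 281 to 502, and 3 of the 7 tested fell, beside the same 6.02%. Microglia and endothelial markers summed to values within the vehicle ranges in both drugs. Mural and fibroblast markers summed to 70.7 CPM in Nilotinib, within the vehicle range of 43.9 to 84.7, and to 42.7 in Fenofibrate, under it. The part of these differences in the levels of Clk1, Clk4 and the neuronal regulators was not tested. In Luteolin neuron markers summed to 8210 CPM, above the range, and astrocyte (5790) and mural and fibroblast markers (39.0) lay under theirs. In Mitoxantrone·HCl astrocyte markers summed to 5770 CPM, under the range, and neuron markers summed to 7910 in Apigenin and 7780 in CP-448187, just above it. The other sums of these 3 drugs lay within the vehicle ranges. The part of these shifts in the levels of the 10 genes was not tested. In Aminophylline all 6 sums lay within the vehicle ranges.

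**Figure D5:**
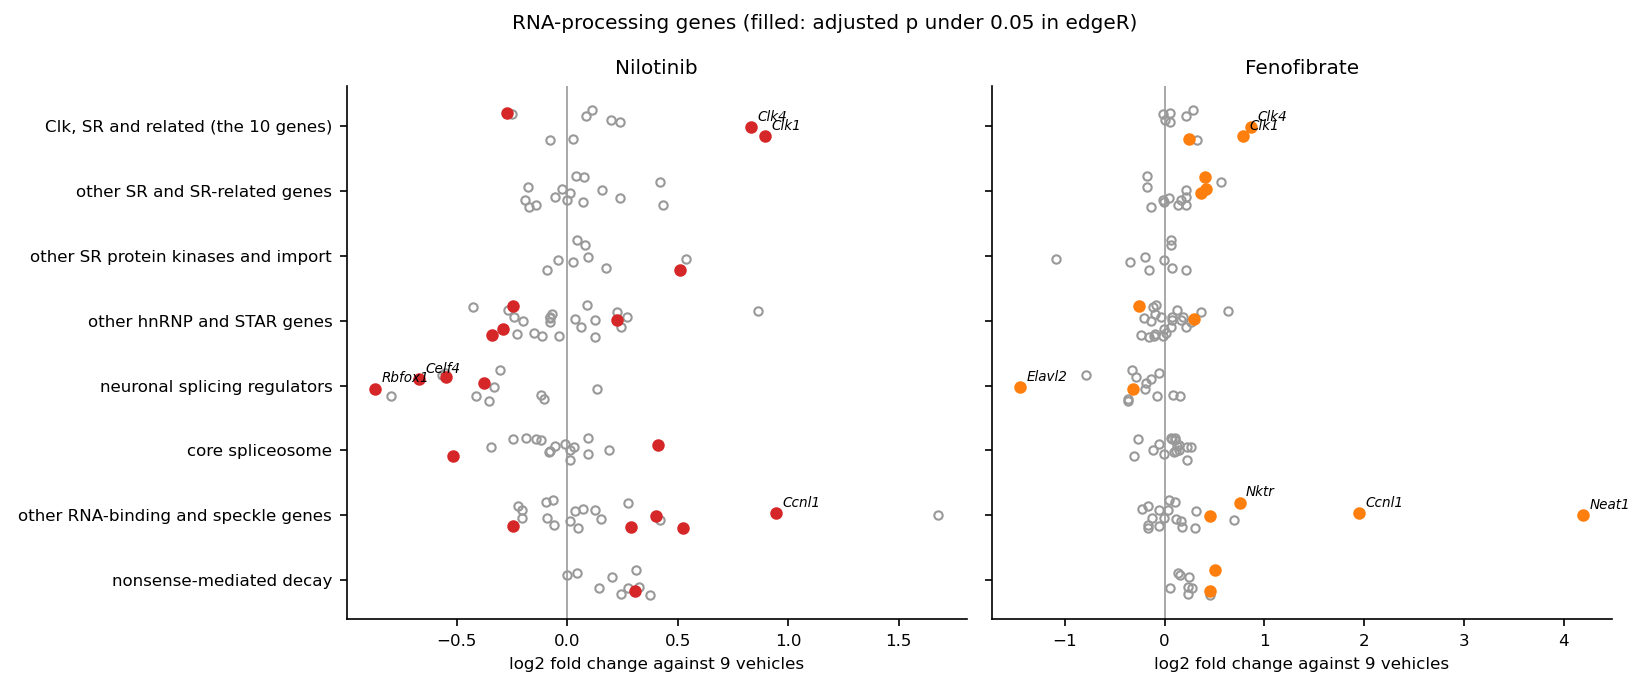
Log2 fold change against the 9 vehicles (x axis) of the 10 genes and of 111 other RNA-processing genes in Nilotinib and Fenofibrate, by list (y axis, points spread within a row for legibility; the x scales differ). Filled points passed the edgeR threshold; Clk1, Clk4 and Ccnl1 lie to the right in both drugs, Neat1 at 4.2 in Fenofibrate, and Elavl2 at −1.45 in Fenofibrate.

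The genes most like the mean of the 10, by Pearson r over the run-centred libraries other than Aminophylline and Luteolin, were Hnrnpa2b1 (0.75), Chuk (0.72), Dmpk (0.71), Akap8 (0.71) and Ewsr1 (0.70). Hnrnpa2b1 and Ewsr1 encode RNA-binding proteins, Chuk and Dmpk kinases, and Akap8 a nuclear anchoring protein. These values share the count table, the depth of each library and its scaling with the 10 genes.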

How the data were processed

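The authors deposited whole read counts per gene that are not normalized, and RPKM values, per the file headers and the values. RPKM, which the authors deposited, equalled count divided by length and column total in 3098898 values (largest relative difference 5.0e-06) and was used to compare genes. Per the submitters' processing notes, the tools were edgeR 3.10.5, limma, Subread 1.4.6 and STAR 2.4.0 with the build mm10; their steps are not stated. Libraries were grouped by the agent in the labels.

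In R 4.3.3, each drug was tested against the 9 vehicles in edgeR 4.0.16 (TMM factors, default filter on low counts, quasi-likelihood F test, Benjamini-Hochberg adjustment over all genes of a comparison). CPM uses TMM-scaled totals (factors 0.939 to 1.06). Run code was no term in this test, and lane was a term in none of the models. Alternatives were RLE factors, no filter, DESeq2 1.42.0, limma 3.58.1 with run code over all 227 libraries, and leaving out each vehicle, the last in the 17 drugs with a called gene. The test was tried on simulated data first.

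The 10 genes, the lists of other genes and the related drugs were chosen with earlier results of these data known. Named were the 10 genes, the 3 highest and lowest drugs of each, every called pair, the related drugs, up to 5 list genes each way in the drugs with most calls, and the 5 most similar genes; drugs and genes beyond this were chosen after their values were seen. Coordinates are from GENCODE vM21, and promoters from RefSeq (GRCm38.p6).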

Additional observations from a re-analysis of the deposited data

How the results depend on the processing

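The 7 calls of the 10 genes in the drugs other than Aminophylline and Luteolin were 4 with no filter on low counts, 25 in DESeq2 and 12 in limma with run code, and 4 to 7 when a vehicle was left out. The 6 rises were 14 in DESeq2 and 4 to 6 without a vehicle; the 1 fall was 0 with no filter, 11 in DESeq2, 5 in limma with run code and 0 to 2 without a vehicle. For the wider list, the 31 calls were 19 with no filter, 96 in DESeq2, 126 in limma with run code and 15 to 35 without a vehicle, where leaving out vehicle 5 gave 15 and vehicle 9 gave 17. Its 18 rises were 34 in DESeq2, 57 in limma and 10 to 22 without a vehicle, and its 13 falls were 6 with no filter, 62 in DESeq2, 69 in limma and 5 to 13 without a vehicle. In Aminophylline and Luteolin, whose values chose the genes, a count past the same threshold would be no test of them and is not given. Over all gene-drug pairs outside Aminophylline and Luteolin, edgeR called 0.118%, DESeq2 0.269% and limma with run code 0.457%. The larger counts of the 10 genes and of the wider list in DESeq2 and limma stand beside these larger shares. The cause of these shifts was not tested. No result reversed its direction, and the vehicle levels of the 10 genes moved by less than their SD with RLE factors and with total counts. The 4 calls of Clk1 and Clk4 were kept under all 13 alternatives, and those of Srsf7 and Khdrbs1 were not. No paired analysis was possible because each drug has 1 library and so shares fewer than 2 replicate numbers with the vehicles. The lowest count of any of the 10 genes in a library was 532 reads, and with 1 library per drug the error of a difference comes from the spread of the vehicles.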
